A study of Mus musculus with 14 samples.

Results

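The genes described here encode 8 signalling proteins that act directly downstream of the pre-B cell receptor: the kinases Syk, Btk and Blk, the adaptor Blnk, the phospholipase Plcg2, the protein kinase C gene Prkcb, the exchange factor Vav1 and the lipid kinase subunit Pik3cd. They were chosen by name for their place in the pathway, with earlier results of these data known. Counts of members set beside shares of all genes are therefore descriptive. Each was measured by 1 probe set with 1 gene symbol, so they make up 8 of the 19938 genes with a named probe set. Expression was measured on 14 Affymetrix microarrays of the mouse pre-B line BH1-Bcl2-Ik1ER, which is deficient in Ikaros, the lymphoid zinc finger transcription factor encoded by Ikzf1. All cells carried retroviral Bcl2, which blocks apoptosis, and a retroviral fusion of Ikaros to the estrogen receptor, and cells with both retroviruses had been sorted by flow cytometry. 4-hydroxytamoxifen (4OHT), the ligand that induces the fusion, was given at 100 nM. IL-7, the cytokine on which early B cells grow, came from 8% conditioned medium, which was omitted for withdrawal. Loss of IL-7 and loss of anything else in that medium therefore cannot be told apart. The 7 groups were time 0 (with IL-7, no 4OHT), 6 h with 4OHT and IL-7, 6 h with 4OHT and without IL-7, 24 h with IL-7 and no 4OHT, 24 h with IL-7 and 4OHT, 24 h without IL-7 and without 4OHT, and 24 h with 4OHT and without IL-7. Each group had 2 arrays, 1 from experiment 1 and 1 from experiment 2. No group at 6 h lacked 4OHT and no group lacked the fusion. Within these data 4OHT itself and the induced fusion therefore cannot be told apart. Nor can 4OHT and time in culture be told apart at 6 h against time 0. All arrays come from 1 cell line.

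The pre-B cell receptor joins an immunoglobulin mu heavy chain to the surrogate light chain and to the signalling chains CD79A and CD79B. Src family kinases such as BLK phosphorylate the tails of the signalling chains, SYK binds there and phosphorylates the adaptor BLNK, and BLNK brings together BTK and its substrate phospholipase C gamma 2. The phospholipase makes the messengers that release calcium and activate protein kinase C beta, VAV1 activates Rac proteins, and PI3 kinase delta, whose catalytic subunit is encoded by Pik3cd, makes the membrane lipid that recruits BTK. In pre-B cells IL-7 supports proliferation, while receptor signalling through this cascade is known for its role in the exit from the cycle and in light chain gene rearrangement.

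The values are log2 signals, and array medians lay between 7.23 and 7.43. Both arrays of a group correlated at 0.9933 to 0.9965 over all probe sets. Of 9 B lineage markers tested, 7 lay above the median of all values (7.33), among them Cd79a, Cd79b, Pax5, Ebf1 and Il7r, whereas Rag1 and Dntt lay below it in all groups. The mean of the B lineage markers was 10.9 to 11.2 on every array. Means of 10 T cell markers lay between 5.89 and 6.19, of 10 myeloid markers between 6.07 and 6.25 and of 10 natural killer markers between 5.42 and 5.70. Means of 7 plasma cell markers lay between 8.50 and 8.72, of 6 erythroid and megakaryocyte markers between 7.30 and 7.69 and of 7 stromal markers between 6.65 and 6.95. The probe set of Ikzf1, the gene deficient in this line, read between 13.04 and 13.34 in the group means. Whether it detects the retroviral fusion, the endogenous transcript or both was not tested.

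To set the members beside their upstream sequence, windows from 250 bases before to 50 bases after transcript starts were read from RefSeq (build GRCm38.p6). Not every annotated start had a window. For Syk, Btk and Pik3cd none reached the 5′ end of the gene's span. The table held 10 windows for 7 of the 8 genes and no entry for Blk. Windows were searched on both strands for 7 short motifs spelled out here: the Ikaros core TGGGAA, the octamer ATGCAAAT, the ETS core AGGAAGT, the EBF1 motif (TCCC and GGGA with 2 bases between them), the FoxO motif GTAAACA, the STAT motif TTCNNNGAA and the E protein motif CAGCTG. The octamer occurred in 2 of the 10 windows, those of Blnk and Prkcb, and in 1.74% of all 32851 windows of this length. The Ikaros core occurred in 4 of the 10 windows, belonging to Btk, Plcg2 and Pik3cd, and in 25.6% of all windows. The ETS core stood in the windows of Blnk and Vav1 (9.35% of all windows), and the E protein motif stood 4 times in that of Prkcb and once in 1 of the 2 windows of Syk (16.3%). None of the 10 windows held the letters of the EBF1 motif (0.904% of all windows), the FoxO motif (3.65%) or the STAT motif (8.30%). The windows of the 4 genes with the largest treatment differences, and of Plcg2 with its single Ikaros core, are shown, and those of Pik3cd, with 1 Ikaros core at start 1 and 2 at start 3, are not. They are printed 5′ to 3′ on the strand of the gene, in lower case with the motif matches in capitals. Blnk lies at chr19:40928927-40994221 and its window at chr19:40994172-40994471 (minus strand), with the ETS core first and the octamer, on the opposite strand, second.
Blnk: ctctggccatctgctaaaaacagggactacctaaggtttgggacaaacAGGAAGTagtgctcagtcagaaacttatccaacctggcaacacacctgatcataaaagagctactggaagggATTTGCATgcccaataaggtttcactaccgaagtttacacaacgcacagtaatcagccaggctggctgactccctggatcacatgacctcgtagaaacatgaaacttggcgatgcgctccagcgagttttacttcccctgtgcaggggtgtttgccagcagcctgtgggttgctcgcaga
Syk lies at chr13:52582610-52648792, and the first of its 2 windows is chr13:52583187-52583486 (plus strand), with an E protein motif.
Syk: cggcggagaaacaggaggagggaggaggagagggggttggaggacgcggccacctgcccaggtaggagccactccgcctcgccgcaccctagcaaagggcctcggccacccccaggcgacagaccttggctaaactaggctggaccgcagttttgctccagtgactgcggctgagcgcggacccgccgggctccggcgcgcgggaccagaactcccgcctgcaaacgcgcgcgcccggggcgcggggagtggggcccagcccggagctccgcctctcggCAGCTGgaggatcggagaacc
Btk lies at chrX:134542334-134583628, and its window is chrX:134583091-134583390 (minus strand), with an Ikaros core.
Btk: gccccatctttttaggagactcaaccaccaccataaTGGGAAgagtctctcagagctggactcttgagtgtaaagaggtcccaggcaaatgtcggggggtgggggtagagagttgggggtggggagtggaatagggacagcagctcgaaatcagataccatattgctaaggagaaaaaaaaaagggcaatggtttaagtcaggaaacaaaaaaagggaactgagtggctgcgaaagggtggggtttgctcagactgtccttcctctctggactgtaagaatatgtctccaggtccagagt
Prkcb lies at chr7:122289104-122634402, and its window is chr7:122288875-122289174 (plus strand), with the octamer between the first and the second of the 4 E protein motifs.
Prkcb: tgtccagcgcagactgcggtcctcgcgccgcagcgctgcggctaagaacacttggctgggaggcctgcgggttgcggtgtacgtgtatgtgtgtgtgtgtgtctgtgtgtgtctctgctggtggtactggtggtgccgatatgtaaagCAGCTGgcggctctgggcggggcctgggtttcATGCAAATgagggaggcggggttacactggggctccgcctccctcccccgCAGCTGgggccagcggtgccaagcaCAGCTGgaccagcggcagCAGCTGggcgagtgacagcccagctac
Plcg2 lies at chr8:117498275-117635142, and its window is chr8:117498025-117498324 (plus strand), with an Ikaros core.
Plcg2: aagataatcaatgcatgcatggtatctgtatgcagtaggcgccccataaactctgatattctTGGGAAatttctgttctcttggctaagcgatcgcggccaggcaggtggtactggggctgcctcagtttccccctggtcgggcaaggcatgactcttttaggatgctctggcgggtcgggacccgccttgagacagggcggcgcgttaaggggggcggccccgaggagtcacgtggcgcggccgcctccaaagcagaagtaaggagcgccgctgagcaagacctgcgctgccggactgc
The matched letters describe these windows only and show no binding.

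Blnk, the adaptor, was lowest at 24 h with IL-7 and no 4OHT (11.88 and 11.86 in experiments 1 and 2) and highest at 24 h with 4OHT and without IL-7 (13.13 and 13.01). It read 12.16 and 12.39 at time 0, 12.37 and 12.42 at 6 h with IL-7, 12.94 and 12.82 at 6 h without IL-7, 12.62 and 12.43 at 24 h with IL-7 and 4OHT, and 12.63 and 12.62 at 24 h without IL-7 and 4OHT. In the order of group means, 6 h with IL-7 overlapped time 0, and no other neighbouring groups overlapped. The 3 groups without IL-7 held the 3 highest group means.

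Syk, the kinase that binds the phosphorylated receptor chains, read 9.95 and 10.28 at time 0, 10.23 and 10.31 at 6 h with IL-7, and 10.74 and 10.78 at 6 h without IL-7. At 24 h it read 10.12 and 10.10 with neither treatment, 10.87 and 10.78 with 4OHT, 10.36 and 10.57 without IL-7, and 11.43 and 11.39 with both. The lowest 3 groups, namely time 0, 6 h with IL-7 and 24 h with neither treatment, overlapped their neighbours. The 24 h group with 4OHT and IL-7 lay above that at 6 h without IL-7 by less than 1 SE of a group difference. With both treatments at 24 h, both arrays lay above all other arrays.

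Btk, the kinase that activates the phospholipase, read 10.59 and 10.49 at time 0, 10.95 and 10.83 at 6 h with IL-7, and 11.26 and 11.12 at 6 h without IL-7. At 24 h it read 10.54 and 10.30 with neither treatment, 11.09 and 10.89 with 4OHT, 10.84 and 10.76 without IL-7, and 11.45 and 11.26 with both. The array of experiment 1 was the higher in every group, and across groups Btk was lower in experiment 2 by 0.15 (limma, adjusted p = 0.00881). In the order of the groups, the means for 24 h with IL-7 and 4OHT, 6 h with IL-7 and 24 h without IL-7 or 4OHT formed a run in which neighbours overlapped, and time 0 overlapped 24 h with neither treatment.

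Blk, a Src family kinase of B cells (chr14:63372837-63417187), lay below the median of all values in all 7 groups. Its arrays ranged from 6.58 to 7.19, every neighbouring pair in the order of groups overlapped, and the group means spanned 0.20. It differed between experiments by -0.23 (experiment 2 minus experiment 1, limma, adjusted p = 0.0262), which is more than the span of its group means. Blk passed in none of the 12 comparisons and had an unadjusted p under 0.05 in none, so no difference was detectable at this signal.

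Prkcb, the protein kinase C of the pathway, had the widest span of group means of the 8 genes, 1.50. It read 9.68 and 9.82 at time 0, 9.31 and 9.37 at 6 h with IL-7, and 9.84 and 9.78 at 6 h without IL-7. At 24 h it read 9.44 and 9.23 with neither treatment, 10.37 and 10.07 with 4OHT, 9.67 and 9.60 without IL-7, and 10.94 and 10.73 with both. The 2 groups with 4OHT at 24 h lay above all other arrays and did not overlap each other. The low end of the order was shared by 6 h with IL-7 and 24 h with neither treatment, which overlapped.

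Plcg2, the phospholipase, read 11.65 and 11.62 at 24 h with both treatments, the highest of its 14 arrays. It read 11.32 and 11.38 at time 0, 11.38 and 11.32 at 6 h with IL-7, and 11.46 and 11.44 at 6 h without IL-7. The other 24 h groups read 11.33 and 11.27 with neither treatment, 11.46 and 11.36 with 4OHT, and 11.19 and 11.28 without IL-7. Apart from the group with both treatments, every group overlapped its neighbour in the order.

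Vav1, the exchange factor (chr17:57279100-57329236), ranged from 11.05 to 11.58 over the 14 arrays. It was lowest at 24 h with neither treatment (11.15 and 11.05) and highest at 24 h with both (11.58 and 11.58), where it lay above the 6 h group without IL-7 (11.50 and 11.56) by less than 1 SE. Pik3cd, the catalytic subunit of PI3 kinase delta (chr4:149649168-149702566), ranged from 9.21 to 9.56. Its highest groups were 24 h with both treatments (9.54 and 9.56) and 6 h without IL-7 (9.51 and 9.46), and its other groups formed a run of overlapping neighbours. In bulk RNA such as this, a change in the number of cells of 1 kind and a change in RNA per cell cannot be told apart for any of the 8 genes.

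**Figure D1:**
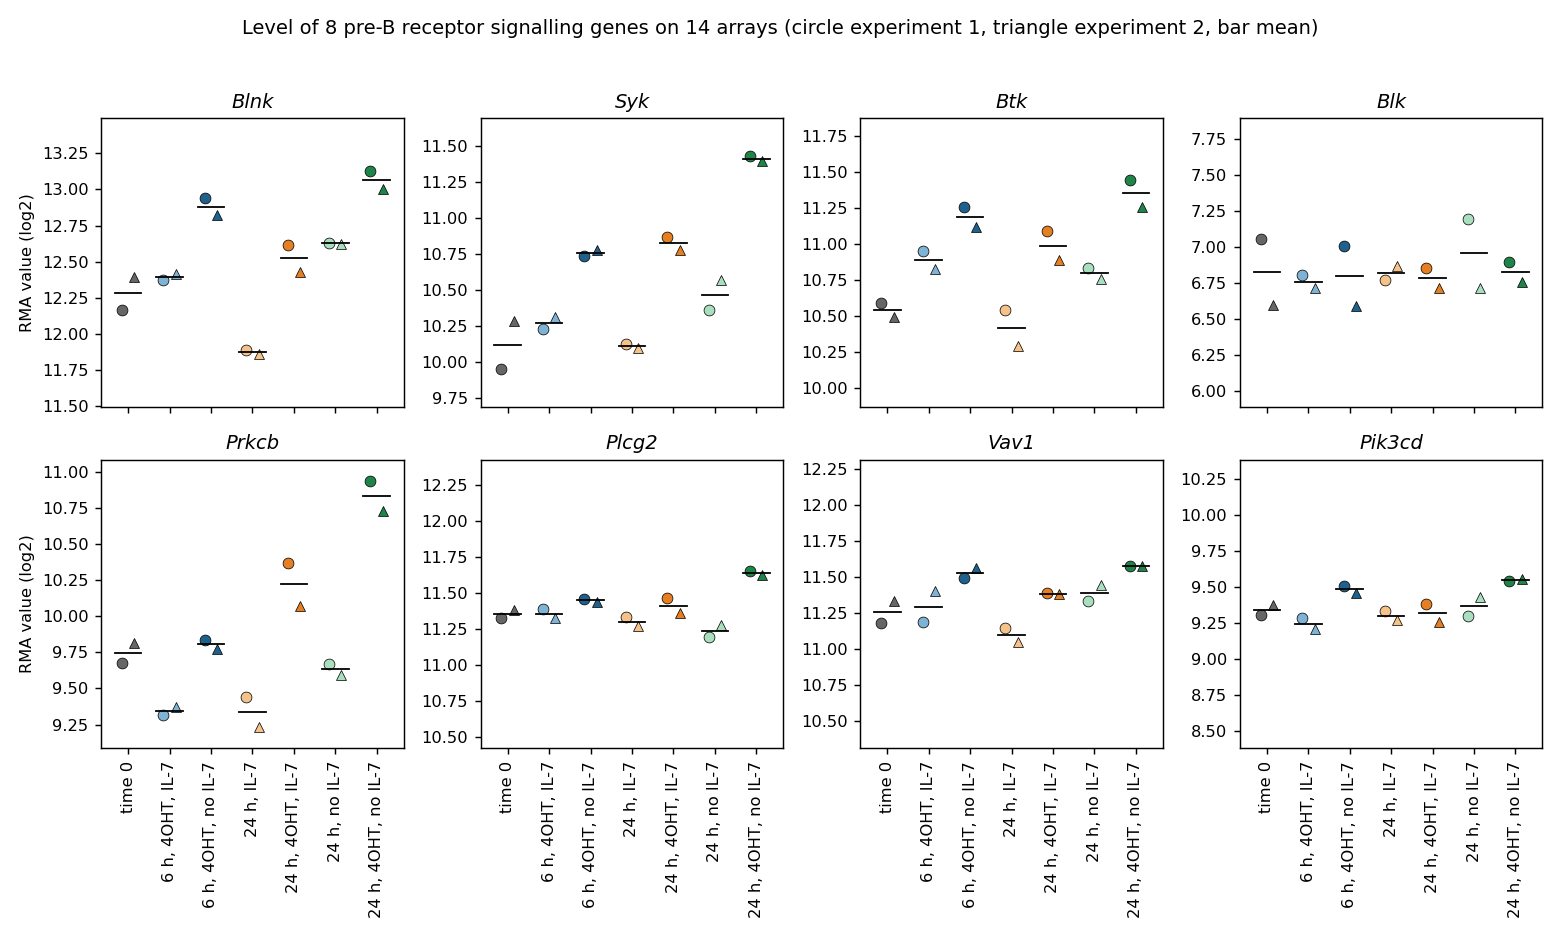
Log2 signal (y axis, 2 log2 units in each panel) of the 8 genes in the 7 groups (x axis), with 1 point per array marked by experiment and a line at each group mean. The group mean at 24 h with 4OHT and without IL-7 was the highest for every gene but Blk. For Btk the lower array of that group (11.2577) barely exceeded the higher array at 6 h without IL-7 (11.2564). For Vav1 and Pik3cd its lead over the 6 h group without IL-7 was below 1 SE of a group difference. The share of all genes with such an order was not computed. Blk showed no order of groups beyond the spread of its arrays.

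At 6 h with 4OHT and IL-7 against time 0, only Prkcb passed, and it fell by 0.41 (SE 0.11, limma, adjusted p = 0.0408). These groups differ in both 4OHT and 6 h of culture, which cannot be told apart here. A gene passed at an adjusted p under 0.05 over all 19938 genes, in a fit over all 14 arrays. In this comparison 4.85% of all genes fell and 3.92% rose. Btk was higher by 0.35 (SE 0.11), with an adjusted p of 0.0682 that became 0.00202 with the experiment as a replicate block, under which 6.83% of all genes rose. The other 6 genes differed by -0.09 to 0.15, and the median of the 8 was 0.02 beside -0.02 for all genes. The call for Prkcb was lost without any 1 of the 4 arrays compared (adjusted p 0.0682 to 0.233).

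IL-7 withdrawal at 6 h, with 4OHT present in both groups, raised 4 of the 8 genes, namely Blnk, Syk, Prkcb and Pik3cd, and lowered none, against 6.78% of all genes that rose and 7.48% that fell. Blnk was higher by 0.49 (SE 0.09, 1.40-fold, adjusted p = 0.00331), Syk by 0.48 (SE 0.10, 1.40-fold, adjusted p = 0.00717) and Prkcb by 0.46 (SE 0.11, 1.38-fold, adjusted p = 0.0139), all in limma. Pik3cd was higher by 0.24 (SE 0.07, 1.18-fold, adjusted p = 0.0485). Btk and Vav1, at 0.30 (adjusted p = 0.0899) and 0.23 (adjusted p = 0.108), passed with the replicate block (adjusted p = 0.00377 and 0.0479), under which 11.2% of all genes rose. Plcg2 differed by 0.09. The median of the 8 differences was 0.27 beside 0.03 for all genes. Leaving out the experiment 1 array at 6 h with IL-7 left 1 call, that of Blnk, and leaving out either array without IL-7 left 2, while Pik3cd was lost without any 1 of the 4 arrays, with only the compared groups in the fit (adjusted p = 0.123) and with limma's trend and robust options (adjusted p = 0.0806). The means of the 6 erythroid and megakaryocyte markers were 7.57 and 7.60 with IL-7 and 7.30 and 7.35 without it. The transferrin receptor gene Tfrc on that list read 11.6 and 9.65 in its group means, and the other markers did not share its fall. Their group means with and without IL-7 were 7.446 and 7.583 for Klf1, 7.040 and 7.034 for Epor and 4.955 and 4.959 for Pf4. Itga2b read 7.259 and 7.334, and Gp9 read 7.216 and 7.374. The part of these markers in the result was not tested.

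After 24 h of culture with IL-7 and no 4OHT, Blnk fell by 0.41 against time 0 (SE 0.09, limma, adjusted p = 0.0353), and no other member passed, where 2.36% of all genes fell and 0.737% rose. Prkcb was lower by the same amount, at -0.41 (SE 0.11, adjusted p = 0.0722), and passed with the replicate block (adjusted p = 0.0173), under which 7.15% of all genes fell. All 8 differences were negative, with a median of -0.09 beside 0.01 for all genes. Of all 19938 genes, 10868 had a positive difference. Those of Syk and Blk were only -0.005 and -0.007. After renewed quantile normalization the differences of Syk and Pik3cd turned positive (0.051 and 0.035). In experiment 1 alone Syk (0.17), Plcg2 (0.007) and Pik3cd (0.03) were positive, and in experiment 2 alone Blk was (0.27). The call for Blnk was lost without the experiment 2 array at time 0, without either 24 h array, and with only the compared groups in the fit (adjusted p = 0.136). This 24 h group is the control of the 4OHT and withdrawal comparisons at 24 h with IL-7 or without 4OHT.

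At 24 h with IL-7, 4OHT raised Blnk, Syk, Btk and Prkcb and lowered none of the 8, where 5.22% of all genes rose and 3.94% fell. Prkcb rose by 0.88 (SE 0.11, 1.85-fold, limma, adjusted p = 0.000295), Syk by 0.71 (SE 0.10, 1.64-fold, adjusted p = 0.000845), Blnk by 0.65 (SE 0.09, 1.57-fold, adjusted p = 0.000698) and Btk by 0.57 (SE 0.11, 1.48-fold, adjusted p = 0.00454). For each of these 4 genes, picked because they passed here, both treated arrays lay above both control arrays. The share of all genes with such a separation was not computed, so it adds no separate support. Vav1 was higher by 0.29 (SE 0.09, adjusted p = 0.0626) and passed with the replicate block (adjusted p = 0.0228, where 9.09% of all genes rose), whereas Plcg2 and Pik3cd differed by 0.11 and 0.02. The median of the 8 was 0.43 beside -0.04 for all genes. Btk was not called without the experiment 1 array with 4OHT or without the experiment 2 control array (adjusted p 0.00559 to 0.0706 over the 4 arrays).

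At 24 h without IL-7, 4OHT raised 5 of the 8 genes, the same 4 and Plcg2, and lowered none, where 7.10% of all genes rose and 8.17% fell. Prkcb rose by 1.20 (SE 0.11, 2.30-fold, limma, adjusted p = 1.27e-05) and Syk by 0.95 (SE 0.10, 1.93-fold, adjusted p = 4.53e-05). Btk rose by 0.55 (SE 0.11, 1.47-fold, adjusted p = 0.0031), Blnk by 0.44 (SE 0.09, 1.36-fold, adjusted p = 0.00537) and Plcg2 by 0.40 (SE 0.07, 1.32-fold, adjusted p = 0.00128). Vav1 and Pik3cd were higher by 0.19 and 0.18 and did not pass. The median of the 8 was 0.42 beside 0.01 for all genes. Blnk was lost without the experiment 1 array with 4OHT (adjusted p = 0.0519).

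IL-7 withdrawal at 24 h without 4OHT raised Blnk, Syk, Btk and Vav1 and lowered none of the 8, where 11.2% of all genes rose and 8.78% fell. Blnk rose by 0.76 (SE 0.09, 1.69-fold, limma, adjusted p = 0.000138), Btk by 0.38 (SE 0.11, 1.30-fold, adjusted p = 0.0237), Syk by 0.35 (SE 0.10, 1.28-fold, adjusted p = 0.0295) and Vav1 by 0.29 (SE 0.09, 1.22-fold, adjusted p = 0.033). Prkcb was higher by 0.30 (SE 0.11, adjusted p = 0.0855) and passed with the replicate block (adjusted p = 0.0327, where 15.6% of all genes rose), and Plcg2 and Pik3cd differed by -0.06 and 0.07. The median was 0.29 beside -0.01 for all genes. Only Blnk was called in all 4 fits that left out 1 of the compared arrays: 1 call was left without the experiment 2 array of either group, and 2 without the experiment 1 array of either group. The means of the erythroid and megakaryocyte markers were 7.67 and 7.69 with IL-7 and 7.37 and 7.43 without it. Tfrc had group means of 11.9 and 10.2, and no other marker of the list fell by a like amount. Those of Klf1 were 7.560 and 7.552, of Epor 7.161 and 7.069 and of Pf4 5.001 and 4.989. Itga2b read 7.316 and 7.308, and Gp9 read 7.116 and 7.260. The part of these markers in the result was not tested.

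IL-7 withdrawal at 24 h in the presence of 4OHT raised 6 of the 8 genes, all but Blk and Vav1, and lowered none, where 12.8% of all genes rose and 11.5% fell. Prkcb rose by 0.61 (SE 0.11, 1.53-fold, limma, adjusted p = 0.00152), Syk by 0.59 (SE 0.10, 1.50-fold, adjusted p = 0.00123) and Blnk by 0.55 (SE 0.09, 1.46-fold, adjusted p = 0.000916). Btk rose by 0.36 (SE 0.11, adjusted p = 0.025), Plcg2 by 0.23 (SE 0.07, adjusted p = 0.0276) and Pik3cd by 0.23 (SE 0.07, adjusted p = 0.0398), and Vav1 was higher by 0.19 (adjusted p = 0.135). The median was 0.30 beside 0.06 for all genes. Btk, Plcg2 and Pik3cd lost their calls without the experiment 1 array lacking IL-7, without the experiment 2 array with IL-7, and with only the compared groups in the fit, and Plcg2 and Pik3cd also without the experiment 2 array lacking IL-7. Pik3cd did not pass with limma's trend and robust options either (adjusted p = 0.0661). The means of the erythroid and megakaryocyte markers were 7.57 and 7.61 with IL-7 and 7.56 and 7.67 without it.

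**Figure D2:**
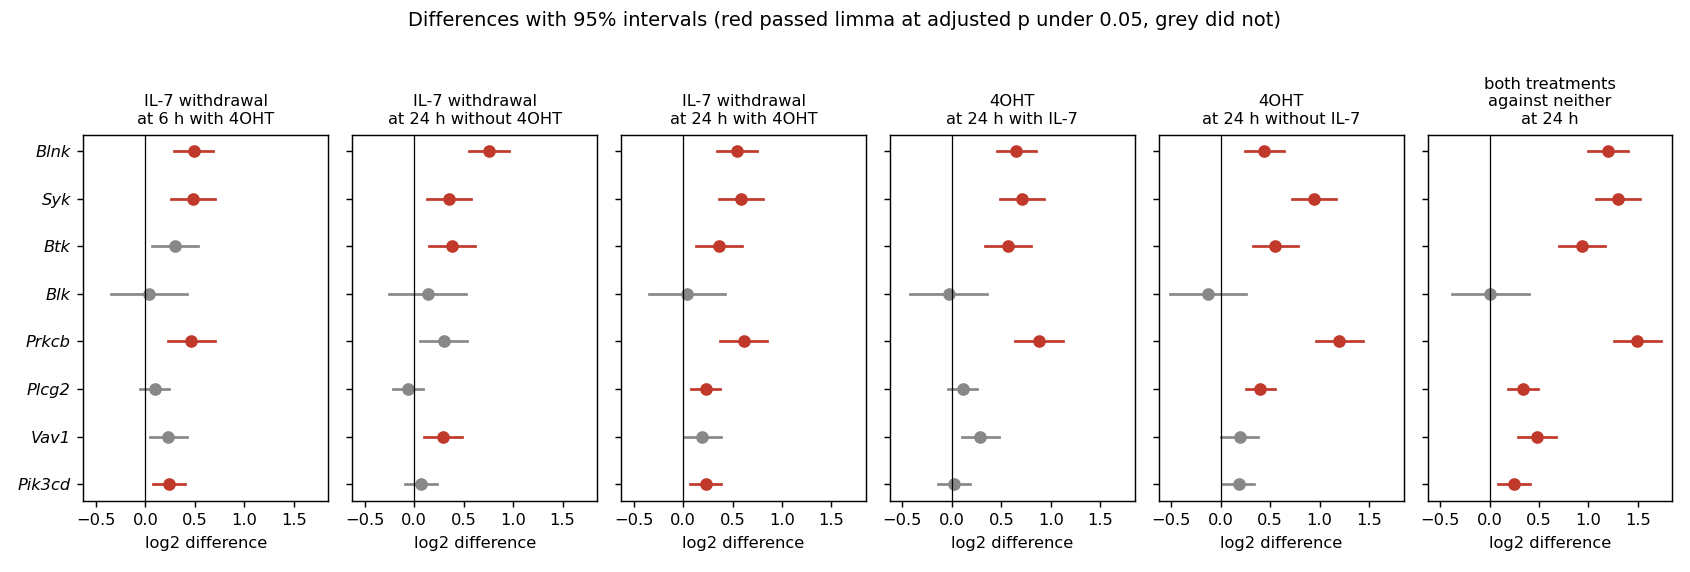
Log2 difference (x axis) with its 95% confidence interval (bars) for the 8 genes in the 6 comparisons named above the panels, in red for an adjusted p under 0.05 (limma) and in grey otherwise. The differences of all genes but Blk and Plcg2 were positive in each of the panels for 4OHT at 24 h and for IL-7 withdrawal. Blnk and Syk passed in each of these panels. Prkcb did not pass after withdrawal without 4OHT, nor Btk after withdrawal at 6 h. Vav1 passed only after withdrawal without 4OHT, and Pik3cd only after withdrawal with 4OHT, at 6 h and at 24 h. Blk lay near 0 with the widest intervals.

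With both treatments against neither at 24 h, 7 of the 8 genes rose, all but Blk, where 18.1% of all genes rose and 15.4% fell. Prkcb rose by 1.50 (SE 0.11, 2.82-fold, limma, adjusted p = 7.12e-07), Syk by 1.30 (SE 0.10, 2.46-fold, adjusted p = 1.16e-06), Blnk by 1.20 (SE 0.09, 2.29-fold, adjusted p = 9.29e-07) and Btk by 0.93 (SE 0.11, 1.91-fold, adjusted p = 2.08e-05). Vav1 rose by 0.48 (1.40-fold), Plcg2 by 0.34 (1.26-fold) and Pik3cd by 0.25 (1.19-fold). The median of the 8 was 0.71 beside -0.01 for all genes. The differences of each of the 7 genes had the same sign in both experiments. These genes were called from the same 2 experiments, so the shared sign adds no separate support. The share of all genes with a shared sign was not computed. Pik3cd lost its call in 3 of the 4 fits without 1 array, those without either treated array or without the experiment 2 control, and with only the compared groups in the fit (adjusted p = 0.0776). Among markers of other cells, the means of the 10 natural killer markers were 5.67 and 5.70 with both treatments and 5.57 and 5.59 with neither, and single markers went both ways, with group means of 7.24 and 5.12 for Klrb1c and 6.52 and 7.71 for Nkg7. The means of the 7 plasma cell markers were 8.69 and 8.72 with both treatments and 8.51 and 8.53 with neither, with group means of 11.7 and 9.74 for Mzb1, 7.86 and 9.04 for Sdc1 and 5.97 and 6.12 for Prdm1. The part of these markers in the result was not tested.

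The interaction asks whether the 4OHT difference depended on IL-7 on the log2 scale. None of the 8 genes passed in limma, where 0.687% of all genes did. An unadjusted p under 0.05 was found for 1 of the 8, Plcg2, and for 1826 of all 19938 genes. For Plcg2 the interaction was 0.29 (95% confidence interval 0.08 to 0.50, limma, adjusted p = 0.317), with 0.33 in experiment 1 and 0.26 in experiment 2. Its single differences were 0.11 for 4OHT and -0.06 for withdrawal, beside 0.34 with both. For Prkcb the interaction was 0.32 (interval -0.03 to 0.66) and for Syk 0.23 (interval -0.08 to 0.55). For Blnk it was -0.21 (interval -0.49 to 0.07) and for Btk -0.02 (interval -0.34 to 0.31). The intervals for Vav1 (-0.36 to 0.17) and Pik3cd (-0.07 to 0.39) also included 0. With 2 arrays a group, no departure from the sum of the single differences was detectable after adjustment for any member, Plcg2 included. The intervals do not show that there was none.

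**Figure D3:**
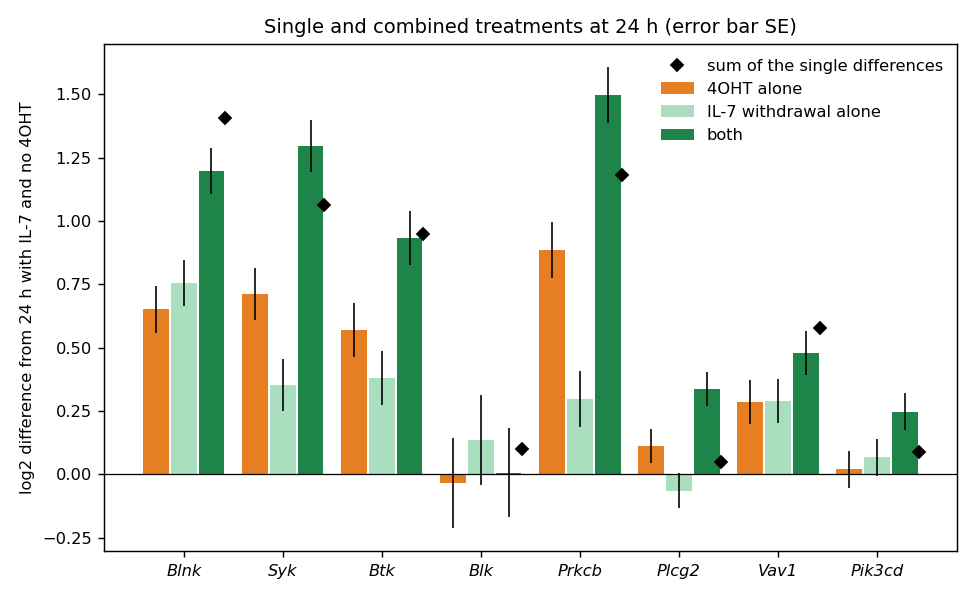
Log2 difference from 24 h with IL-7 and no 4OHT (y axis) for 4OHT alone, IL-7 withdrawal alone and both (bars, with the SE), with diamonds at the sum of the single differences, for the 8 genes. With both treatments Prkcb reached 1.50, Syk 1.30, Blnk 1.20 and Btk 0.93. The diamond lay above the bar for Blnk, Btk, Blk and Vav1 and below it for Prkcb, Syk, Plcg2 and Pik3cd. The interaction was smallest for Btk (-0.02), and none passed.

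The 24 h groups with 4OHT were also set against the 6 h groups with 4OHT, where time in culture and time with 4OHT differ together. With IL-7, Syk rose by 0.55 (SE 0.10, limma, adjusted p = 0.0111) and Prkcb by 0.88 (SE 0.11, adjusted p = 0.00119), the only 2 members to pass, where 1.63% of all genes rose and 2.03% fell. Without IL-7, Syk rose by 0.65 (SE 0.10, adjusted p = 0.00112) and Prkcb by 1.03 (SE 0.11, 2.04-fold, adjusted p = 7.46e-05), again the only 2, where 5.11% of all genes rose and 6.81% fell. Blnk differed by 0.13 and 0.19 and Btk by 0.10 and 0.17 in these comparisons, and neither passed. With IL-7, the call for Syk was lost without either 24 h array or without the experiment 1 array at 6 h (adjusted p 0.0453 to 0.124). Whether the withdrawal difference at 24 h differed from that at 6 h was tested as well. None of the 8 genes passed or had an unadjusted p under 0.05. Of all 19938 genes, 5.01% passed and 3103 had an unadjusted p under 0.05.

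Other genes of the pathway were described from 7 lists of 128 genes, also chosen with earlier results of these data known. Of the 128, 114 had a named probe set. With both treatments against neither at 24 h, 51 of the 114 rose and 15 fell (limma), with a median of 0.18 beside -0.01 for all genes, of which 18.1% rose and 15.4% fell. The 10 other receptor chains and coreceptors divided into 4 that rose and 4 that fell. The phosphatase gene Ptprc, which encodes CD45, rose by 1.29 (SE 0.10), Cd79a by 1.04 (SE 0.09) and Cd79b by 0.82 (SE 0.06), while the surrogate light chain genes Vpreb1 and Vpreb2 fell by 1.04 (SE 0.08) and 0.99 (SE 0.08) and the coreceptor gene Cd81 fell by 0.50 (SE 0.07). Vpreb1 and Vpreb2 are close copies, and how far their probes read each other was not tested. The probe set of Ighm, the heavy chain, stayed between 7.15 and 7.44 in its group means, near the median of all values.

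Of the 8 other proximal tyrosine kinases tested, 4 rose and none fell with both treatments against neither at 24 h (median 0.31). In that comparison 18.1% of all genes rose and 15.4% fell. Zap70, which is related to Syk and best known from T cells, rose by 1.49 (SE 0.10, adjusted p = 3.61e-07), from 8.70 to 10.2. Fyn, a Src family kinase, rose by 1.37 (SE 0.10), and Csk, which inhibits Src family kinases, rose by 0.61 (SE 0.07). The 10 T cell markers had means of 5.94 and 5.96 with both treatments and 6.07 and 6.10 with neither, and 8 of the 10 lay below the median of all values in all groups. The other 2 reached it in their highest group means, 7.34 for Cd3e at 24 h with neither treatment and 7.55 for Cd28 at time 0. The 2 time 0 arrays of Cd28 lay far apart, with a standard deviation of 1.1. Of 18 other adaptors 9 rose and 1 fell (median 0.28). Those that rose most were Bcl10, which links protein kinase C to NF-kappaB (0.79, SE 0.13), Gab1 (0.78, SE 0.10) and Sh3bp2 (0.70, SE 0.11), and Sh2b2 fell by 0.68 (SE 0.09).

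In the PI3 kinase branch 6 of 12 genes rose and 1 fell with both treatments against neither at 24 h (median 0.28). Of all genes, 18.1% rose and 15.4% fell there. Pik3cg, the gamma catalytic subunit, rose by 1.37 (SE 0.13), the regulatory subunit gene Pik3r2 by 0.77 (SE 0.11) and Pik3ca by 0.68 (SE 0.08), beside 0.25 for Pik3cd, and the kinase gene Akt1 fell by 0.23 (SE 0.08, adjusted p = 0.0464). Among 22 genes of the phospholipase C, protein kinase C and calcium branch 11 rose and 1 fell (median 0.40). Dgka, a kinase that removes diacylglycerol, rose by 1.60 (SE 0.13), the calcium channel gene Orai2 by 1.14 (SE 0.13) and the calcineurin gene Ppp3ca by 1.07 (SE 0.09), whereas Prkch, another protein kinase C, fell by 1.08 (SE 0.08), opposite to Prkcb. The difference between these genes was not tested.

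Relatives of Vav1 moved in both directions, since Vav2 rose by 1.67 (SE 0.11) and Vav3 fell by 0.87 (SE 0.08). So did Ras exchange factor genes, since Rasgrp2 rose by 1.29 (SE 0.08) and Sos2 by 0.87 (SE 0.07) while Rasgrp3 fell by 0.70 (SE 0.11), and Mapk14, the p38 alpha kinase, fell by 0.25 (SE 0.07, adjusted p = 0.0189). Of 24 negative regulators 9 rose and 5 fell (median 0.01), beside 18.1% and 15.4% of all genes. The inhibitory Fc receptor gene Fcgr2b rose by 2.09 (SE 0.17), the largest rise among the pathway genes named here, the adaptor gene Sla by 1.59 (SE 0.15) and the inhibitory adaptor gene Dok3 by 1.54 (SE 0.07). Dusp6, a phosphatase of ERK, fell by 1.21 (SE 0.19), and Spry2 and Spry1, inhibitors of Ras signalling, fell by 0.74 (SE 0.08) and 0.74 (SE 0.14).

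**Figure D4:**
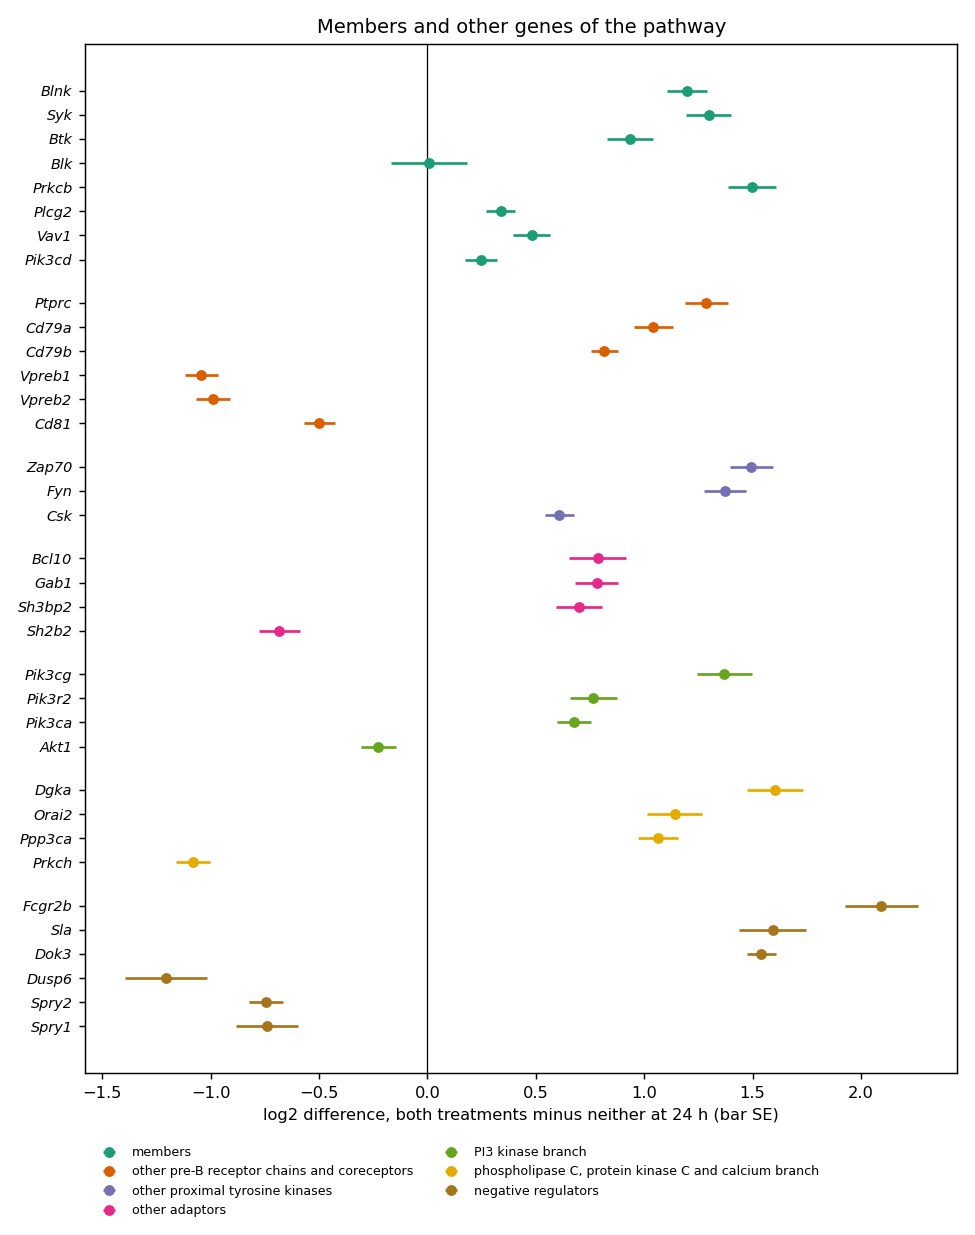
Log2 difference with both treatments against neither at 24 h (x axis; bars, the SE) for the 8 members and the named genes of 6 of the 7 pathway lists, coloured by list, up to 3 largest passing rises and 3 largest passing falls in each. Fcgr2b rose most at 2.09, Blk lay near 0, and Vpreb1, Vpreb2, Prkch and Dusp6 were among those that fell.

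Across the 14 arrays, which share their groups and experiments, Blnk and Vav1 had a Pearson r of 0.936, Blnk and Btk of 0.911 and Syk and Prkcb of 0.901, while Blk had r between -0.223 and 0.0637 with the other members. The same measure was computed against 4942 genes whose group means spanned at least 0.5 and reached the median of all values. The genes most like Blnk were Cstad (r = 0.986), Rab43 (0.984) and Ypel3 (0.978), and 479 of the 4942 had an r over 0.9 with it. Syk was most like Stk11ip (0.985), Spef2 (0.983) and Msl1 (0.973), and Btk was most like Dusp22 (0.974), Fbxo25 (0.974) and Zfp36 (0.971). For Prkcb the nearest were Evi5l (0.969), Agfg2 (0.967) and Sdc4 (0.966), with 104 genes over 0.9. Vav1 was nearest to Pecam1 (0.977), Xpr1 (0.970) and Ankrd12 (0.965), Plcg2 to Nuak2 (0.937), Tram2 (0.930) and Spata24 (0.924), and Pik3cd to Sdf2 (0.933), Jak2 (0.917) and Ift172 (0.916). No gene had an r over 0.9 with Blk, and its nearest was Cd52 (0.688).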

How the data were processed

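The log2 values of 35556 probe sets on 14 arrays were used as the authors deposited them. Per the submitters' processing notes they come from RMA in Affymetrix Expression Console 1.1, which corrects background, normalizes by quantiles and summarises probes. The build is not given in the sources used here, depth does not apply, and no scanner intensities were used here. Probe sets were named through the platform annotation: 21789 had 1 symbol, 1621 several and 12146 were unlisted. The brightest probe set was taken for the 999 genes with more than 1, which left 19938 genes. Members and gene lists were chosen with earlier results of these data known. Tests used limma 3.58.1 under R 4.3.3 (1 fit over 14 arrays, a mean per group, 7 residual and 4.83 prior degrees of freedom, two-sided, Benjamini-Hochberg adjusted over all genes). The fit was checked on simulated data with independent noise and no difference between experiments, so the check does not cover arrays that share an experiment. The labels give 2 independent experiments, so the experiment number pairs arrays: deviations of same-numbered arrays correlated at 0.124 to 0.631 in 21 pairs of groups. The experiment number as a block was an alternative. Comparisons that share a group are not independent. RMA makes differences relative to the bulk of the genes, whose median shifted by -0.037 to 0.058. Named pathway genes are up to 3 largest passing rises and falls per list. The count of 1 pathway list is not reported here.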

Additional observations from a re-analysis of the deposited data

How the results depend on the processing

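The settings tried were the replicate block, renewed quantile normalization, removal of dim genes, the mean of a gene's probe sets, limma's trend and robust options, a fit of the compared groups alone, and leave-one-out fits without 1 compared array. For both treatments against neither, 4OHT at 24 h with or without IL-7, and 24 h against 6 h without IL-7, the number of members called stayed within 1.5 times of that reported, and the interaction and the withdrawal difference between times kept 0. At 6 h with 4OHT and IL-7 against time 0 the count of 1 became 0 in the compared groups alone, 2 after quantile normalization, 2 with the replicate block and 2 without dim genes, and it was 0 in all 4 leave-one-out fits. For 24 h with IL-7 and no 4OHT against time 0, the 1 call became 0 in the compared groups alone, 2 with the replicate block, and 0 to 1 with 1 array left out (0 without the experiment 2 array at time 0 or either 24 h array). Leave-one-out counts were 1 to 4 for withdrawal at 6 h (1 without the experiment 1 array with IL-7, 2 without either array lacking it), 1 to 2 for withdrawal at 24 h without 4OHT (each of the 4 arrays), 3 to 6 for withdrawal at 24 h with 4OHT (3 without the experiment 2 array with IL-7 or the experiment 1 array lacking it) and 1 to 2 for 24 h against 6 h with IL-7 (1 without either 24 h array or the experiment 1 array at 6 h). In the compared groups alone withdrawal at 24 h with 4OHT kept 3 calls. Limma's trend and robust options ended the calls of Pik3cd for withdrawal at 6 h and at 24 h with 4OHT (adjusted p = 0.0806 and 0.0661). The cause of these changes was not tested. The leave-one-out fits and the fits of the compared groups alone also hold fewer arrays.

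Signs changed only for log2 differences that had not passed. Quantile normalization turned the interaction of Btk from -0.02 to 0.035, Pik3cd and Syk at 24 h with IL-7 against time 0 from -0.04 to 0.035 and from -0.005 to 0.051, and Pik3cd under 4OHT with IL-7 from 0.02 to -0.054. With 1 array left out, the ranges were -0.14 to 0.11 for the interaction of Btk, -0.041 to 0.081 for Pik3cd under 4OHT with IL-7 and -0.17 to 0.16 for Syk at 24 h with IL-7 against time 0. At 6 h with IL-7 against time 0 they were -0.0018 to 0.23 for Blnk, -0.029 to 0.031 for Plcg2, -0.011 to 0.32 for Syk and -0.071 to 0.15 for Vav1, and for 24 h against 6 h with IL-7 -0.022 to 0.20 for Vav1. Blk changed sign in 26 of 116 refits and passed in 0. In the withdrawal difference between times the other members changed sign in 11 of 98 refits and passed in 0. With the replicate block 6 further member differences passed and no call was lost. The pathway genes were refitted with the same settings, a choice made after seeing the data: 47 to 55 rose and 13 to 17 fell, and of the 33 named only Akt1 and Mapk14 lost a call. With 2 arrays a group the median SE of a log2 difference was 0.091, which bounds what could be detected.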
